A study of Mus musculus with 64 samples.

Results

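The 10 genes described here are pluripotency genes, that is, genes best known from the early embryo and embryonic stem cells, followed through the male germ line of the mouse. They are Pou5f1 (Oct4), Nanog, Sox2, Dppa2, Dppa3, Dppa4, Dppa5a, Utf1, Tdgf1 and Prdm14, chosen by name, and each is 1 of the 26385 rows of the deposited gene tables. Their reads were counted in all 47 RNA-Seq libraries of a study of MORC1, a nuclear ATPase that keeps transposable elements silent in male germ cells. Of these libraries, 20 came from germ cells sorted before birth (embryonic days E16.5 and E18.5) or after it (postnatal days P2.5 and P10.5). The other 27 were of whole testis.

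The sorted cells came from Morc1 het (Morc1tg/+) and Morc1 KO (Morc1tg/tg) males, in which a tyrosinase transgene in Morc1 removes exons 2 to 4 in the FVB/N strain. There were 2 het and 2 KO libraries at E16.5, then 2 and 2 at E18.5, 3 and 2 at P2.5, and 4 and 3 at P10.5. From E16.5 to P2.5 the animals also carried the Oct4-IRES-eGfp reporter in a mixed background, and the eGFP-positive cells were sorted. At P10.5 the sort took cells with low side scatter, high EPCAM and no H2-Kq instead. The gate and the stage thus cannot be told apart for P10.5, and Pou5f1 was itself the gene read by the earlier gate. Whole testis was taken at P10.5 from Morc1 WT, het and KO (1, 2 and 3 libraries, with 1 WT and 1 het library more that are labelled preliminary), Dnmt3l WT, het and KO (3 each) and Miwi2 het and KO (2 each), and at P14.5 from Morc1 het and KO (3 each). Each library was made from 1 mouse, from 10 ng of total RNA with depletion of ribosomal RNA for sorted cells and with the TruSeq v2 kit for testis. For the Dnmt3l and Miwi2 animals, the strain, the allele and whether controls were littermates were not stated in the sources used here.

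Pou5f1, Sox2 and Nanog encode the core transcription factors of pluripotency, and Prdm14 and Dppa3 are needed to form germ cells or to protect the early genome from demethylation. Dppa2 and Dppa4 encode a pair of SAP domain proteins that act together on chromatin, Utf1 a chromatin-bound factor, Dppa5a a KH domain RNA-binding protein and Tdgf1 (Cripto) the co-receptor of Nodal. Male fetal germ cells keep part of this programme as they stop dividing and become prospermatogonia, the cells that re-methylate their genome before birth and give rise to spermatogonia after it.

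In mm9, the build of the files, Dppa4 (chr16:48283848-48294405) and Dppa2 (chr16:48310590-48319836) lie 16.2 kb apart on the forward strand. Morc1 (chr16:48431350-48631018) follows them on the same strand, 112 kb beyond the end of Dppa2 and 137 kb beyond that of Dppa4. Dppa3 (chr6:122576428-122580290) and Nanog (chr6:122657507-122664651) are 77.2 kb apart. Utf1 lies at chr7:147129688-147131011, Pou5f1 at chr17:35642982-35647721, Sox2 at chr3:34548927-34551383, Dppa5a at chr9:78214859-78215984, Tdgf1 at chr9:110842114-110848662 and Prdm14 at chr1:13103538-13117244. No member shares an exon with another annotated gene, and only Sox2 lies inside another gene, the lincRNA Sox2ot.

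The 250 bases before the annotated start are shown for 3 of the members that the results turn on. Utf1 fell at each stage, Pou5f1 drives the sorting reporter, and Dppa3 differed most in Dnmt3l KO testis. Sequences are from the mm9 genome, 5′ to 3′ on the forward strand, and capitals mark motifs searched on both strands. The GC box was searched as GGGCGG, the CCAAT box by the letters of its name, and the TATA box, near which transcription often starts, with the letters TATAAA.
Utf1, chr7:147129438-147129687: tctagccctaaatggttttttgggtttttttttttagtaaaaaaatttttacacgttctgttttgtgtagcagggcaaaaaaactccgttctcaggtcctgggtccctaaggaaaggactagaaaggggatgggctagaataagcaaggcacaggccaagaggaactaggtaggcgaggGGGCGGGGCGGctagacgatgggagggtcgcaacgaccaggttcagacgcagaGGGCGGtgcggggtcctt
Pou5f1, chr17:35642732-35642981: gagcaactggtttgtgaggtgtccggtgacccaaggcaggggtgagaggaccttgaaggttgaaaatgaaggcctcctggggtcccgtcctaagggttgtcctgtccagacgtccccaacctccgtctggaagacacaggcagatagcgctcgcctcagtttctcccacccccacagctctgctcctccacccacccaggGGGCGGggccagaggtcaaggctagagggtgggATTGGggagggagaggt
Dppa3, chr6:122576178-122576427: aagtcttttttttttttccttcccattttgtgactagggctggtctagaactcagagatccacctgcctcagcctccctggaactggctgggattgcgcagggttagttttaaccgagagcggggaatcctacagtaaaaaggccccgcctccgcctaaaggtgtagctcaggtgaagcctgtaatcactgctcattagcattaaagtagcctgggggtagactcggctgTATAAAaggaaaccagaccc

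The stretch before Utf1 held 3 GC boxes, 2 of them overlapping, that before Pou5f1 a GC box and a CCAAT box, and that before Dppa3 a TATA box close to the start. Over 20702 protein-coding genes of the tables, 41.8% of such stretches held a GC box, 35.1% a CCAAT box and 11.6% a TATA box, against 6, 5 and 2 of the 10 members. The octamer read by POU factors, in its exact letters ATGCAAAT on either strand, was in 1.60% of all stretches and before no member. Sites that differ from these letters by any base were not searched. The E-box CACGTG (6.77% of all) and the E2F motif (GCGGGAA on either strand, 4.86% of all) were also before no member. CpG dinucleotides numbered 11 before Utf1, 7 before Pou5f1 and 6 before Dppa3, where the median over all genes was 9 (quartiles 3 and 18), and the stretch before Sox2 held the most of the members (25).

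Levels are given in RPKM, the reads on a gene divided by its exon length and the mapped reads, as the authors computed it. Reads on genes numbered 2413679 to 14918478 per sorted library and 22509570 to 42137954 per testis library. The sorted libraries of E18.5 (2698197 to 4007833) and P2.5 (2413679 to 6880081) were the shallowest, which bears on every member with few reads there. The germ cell genes Ddx4 (48.1 to 103 RPKM) and Dazl (154 to 340) were present in all 20 sorted libraries. The 6 marker genes of prospermatogonia summed to between 332 and 417 RPKM at E16.5, then 122 and 171 at E18.5, 49.8 and 92.8 at P2.5 and 33.5 and 43.0 at P10.5. The 10 Sertoli markers in the tables summed to 28.3 to 54.6 RPKM from E16.5 to P2.5 and to 51.2 to 129 at P10.5, and the 7 blood markers to 6.69 to 40.9 before birth and 0 to 5.32 after it. The part of these other cells in the stage differences was not tested. Morc1 was lower in Morc1 KO than in het at each stage (8.29 and 11.1 against 36.1 and 52.9 RPKM at E16.5), and Dnmt3l was lower in Dnmt3l KO testis (0.0370 to 0.0464 against 0.374 to 1.02). Piwil4, the gene also called Miwi2, was higher in the libraries labelled Miwi2 KO (10.7 and 11.5) than in Miwi2 het (6.65 and 7.01), so this level did not follow the label, and which part of the gene the allele removes was not stated in those sources.

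In Morc1 het germ cells the summed level of the members fell with age, and its make-up changed. The 10 members together summed to 335 ± 35.2 RPKM (SD, n = 2) at E16.5, 173 ± 18.7 (n = 2) at E18.5, 83.4 ± 4.72 (n = 3) at P2.5 and 20.9 ± 2.72 (n = 4) at P10.5. Utf1 and Dppa4 made up 83.9 to 85.6% of that sum at E16.5 and 74.8 to 79.0% at E18.5. Utf1 had the largest share at E16.5 (48.2 and 43.0%, with 37.4 and 40.9% for Dppa4). At P10.5 Dppa4 had it, while Utf1 held 2.75 to 8.54%, less than Pou5f1 (19.5 to 28.5%) and Dppa5a (13.01 to 21.1%).

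**Figure D1:**
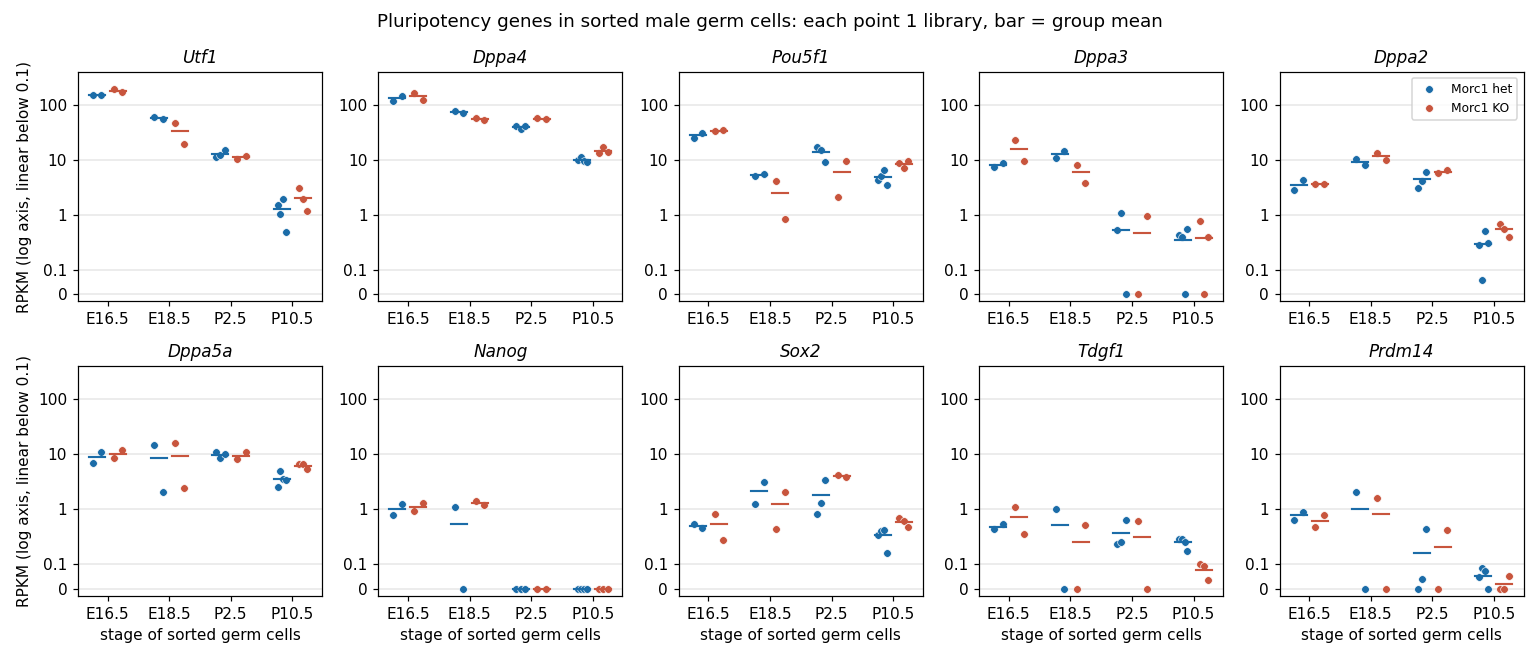
RPKM of the 10 members (log axis, linear below 0.1) in each sorted germ cell library by stage, with Morc1 het in blue and Morc1 KO in red; points are libraries and bars group means. Utf1 and Dppa4 step down at each stage, Pou5f1 is lower at E18.5 than at P2.5 in the het libraries, and Nanog has no read in any of the 12 libraries of P2.5 and P10.5.

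Utf1, the chromatin-bound factor, had 150 and 155 RPKM at E16.5, then 60.1 and 54.7 at E18.5, 11.1, 12.1 and 15.1 at P2.5, and 0.488 to 1.97 (median 1.28, 4 libraries) at P10.5. No stage overlapped another. With edgeR's quasi-likelihood test, the log2 change was -1.39 (SE 0.25, adjusted p = 0.00106) from E16.5 to E18.5, -2.34 (SE 0.24, adjusted p = 2.88e-06) from E18.5 to P2.5 and -3.06 (SE 0.25, adjusted p = 5.77e-07) from P2.5 to P10.5. From E16.5 to P10.5 it fell by 6.80 on the log2 scale (SE 0.26), or 111-fold.

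Dppa4 had 116 and 147 RPKM at E16.5, then 78.9 and 71.2 at E18.5, 41.5, 35.7 and 41.3 at P2.5, and 9.16 to 11.1 (median 9.76) at P10.5. Its levels also did not overlap between stages. It changed by -0.78 (SE 0.15, adjusted p = 0.00118), -1.11 (SE 0.13, adjusted p = 1.17e-05) and -1.70 (SE 0.12, adjusted p = 1.04e-07) on the log2 scale over the 3 steps, with edgeR. Its fall from E16.5 to P10.5 was 12.1-fold.

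Pou5f1, the homeodomain factor at the centre of the network, did not fall steadily. It had 25.0 and 30.8 RPKM at E16.5 (647 and 926 reads), then 5.15 and 5.60 at E18.5 (46 and 58 reads), 17.4, 14.8 and 9.21 at P2.5, and 3.46 to 6.57 (median 4.65) at P10.5. The level at E18.5 thus lay below both neighbouring stages, within the range of P10.5. The edgeR estimates were -2.34 (SE 0.39, adjusted p = 0.000485) from E16.5 to E18.5, 1.17 (SE 0.36, adjusted p = 0.0182) from E18.5 to P2.5 and -1.23 (SE 0.28, adjusted p = 0.00397) from P2.5 to P10.5. Without E18.5 het replicate 1 the rise to P2.5 was 1.00 with an adjusted p of 0.0786. Such a fit leaves 1 library at E18.5, which is assumed to vary like those of the other stages. The cells of E16.5, E18.5 and P2.5 were sorted on a reporter of this gene, and the part of the gate in its level was not tested.

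Dppa2, the partner of Dppa4, followed another course. It had 2.83 and 4.23 RPKM at E16.5, then 10.46 and 8.07 at E18.5, 3.09, 4.14 and 6.13 at P2.5, and 0.0567 to 0.508 (median 0.293) at P10.5. It was highest at E18.5, and E16.5 and P2.5 overlapped. The step up to E18.5 was 1.42 on the log2 scale (SE 0.57, adjusted p = 0.102 with edgeR and 0.0345 with DESeq2), the step to P2.5 was -1.23 (SE 0.51, adjusted p = 0.0682 with edgeR and 0.0296 with DESeq2), and the step to P10.5 was -3.67 (SE 0.49, adjusted p = 5.60e-05 with edgeR).

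Dppa3 (Stella), which shields methylated DNA in the early embryo, had 7.44 and 8.66 RPKM at E16.5, then 10.9 and 14.53 at E18.5, 0.536, 1.07 and 0 at P2.5, and 0 to 0.560 (median 0.417) at P10.5. Both prenatal stages lay above both postnatal ones. The drop fell between E18.5 and P2.5, by 4.74 on the log2 scale (SE 1.05, adjusted p = 0.00224), with 60 and 93 reads before birth and 0 to 9 after it.

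Nanog was low and then not seen in the sorted cells. It had 0.798 and 1.23 RPKM at E16.5 (34 and 61 reads), then 1.09 and 0 at E18.5 (16 and 0 reads), and no read in any of the 12 het and KO libraries of P2.5 and P10.5, which allows up to 3 reads in their 84506827 (counting error only). Against that kind of limit, taken over each group, the mean of E16.5 was at least 40.7-fold higher than P10.5 het and at least 18.7-fold higher than P2.5 het. The fall from E16.5 to P10.5 passed the test (adjusted p = 0.00756 with edgeR). That from E18.5 to P2.5 was at the threshold (adjusted p = 0.0499) and rested on E18.5 het replicate 1, which held all reads of its group. Without that library Nanog had no read on either side, and without P2.5 het replicate 1, 2 or 3 the adjusted p was 0.0735, 0.0983 or 0.103.

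Dppa5a, the RNA-binding protein, had 6.98 and 11.2 RPKM at E16.5, then 14.9 and 2.10 at E18.5, 11.2, 8.44 and 10.1 at P2.5, and 2.54 to 4.91 (median 3.47) at P10.5. The libraries of E18.5 stood on both sides of all others before P10.5, and no step passed the edgeR test (adjusted p = 0.924, 0.914 and 0.131). Without E18.5 het replicate 1 the step from E18.5 to P2.5 was 1.93 (adjusted p = 0.0472), against the 1 library left at E18.5, with 2.10 RPKM, and a spread from the other stages.

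Sox2, Tdgf1 and Prdm14 were near the lower end of the measurement, with at most 3.41, 1.02 and 2.06 RPKM in any het library. Sox2 had 0.549 and 0.454 RPKM at E16.5, then 1.22 and 3.11 at E18.5, 0.815, 1.32 and 3.41 at P2.5, and 0.162 to 0.427 at P10.5. Its step up from E16.5 to E18.5 was 2.17 on the log2 scale (SE 0.92, adjusted p = 0.118 with edgeR and 0.0358 with DESeq2). Its fall from P2.5 to P10.5 was called (-2.15, SE 0.69, adjusted p = 0.0291 with edgeR), but the adjusted p was 0.183 without P2.5 het replicate 3 and 0.0556 to 0.0817 without any 1 of the P10.5 libraries. Prdm14 had 32 and 52 reads at E16.5, then 35 and 0 at E18.5, 0, 1 and 12 at P2.5 and 0 to 4 at P10.5, and Tdgf1 16 and 23, 13 and 0, 2, 5 and 13, and 5 to 10. No step of either passed the test. From E16.5 to P10.5 Prdm14 had a log2 change of -3.69 (SE 1.52), with an adjusted p of 0.0542 with edgeR and 0.0442 with DESeq2.

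Counted together, 3 of the 10 members were lower and 0 higher at E18.5 than at E16.5, where 18.7% of the 16890 genes tested were called. DESeq2 called Sox2 and Dppa2 as higher in addition. From E18.5 to P2.5, 4 were lower and 1, Pou5f1, higher, against 39.1% of genes called. From P2.5 to P10.5, 5 were lower and 0 higher, against 27.6%, and from E16.5 to P10.5, 6 were lower and 0 higher, against 50.7%. The number of members called was thus 3, 5, 5 and 6 of 10, above but not far from the share of all genes in each comparison. The median log2 change over the members was -0.08, -1.17, -1.27 and -3.54 in these 4 comparisons, where that over all genes tested was -0.07, -0.07, 0.02 and -0.18. Nanog, Dppa3 and Prdm14, with no or few reads after birth, passed the filter on counts through their libraries before birth. Their falls after birth enter these counts and medians and are no separate support for a fall of the members.

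**Figure D2:**
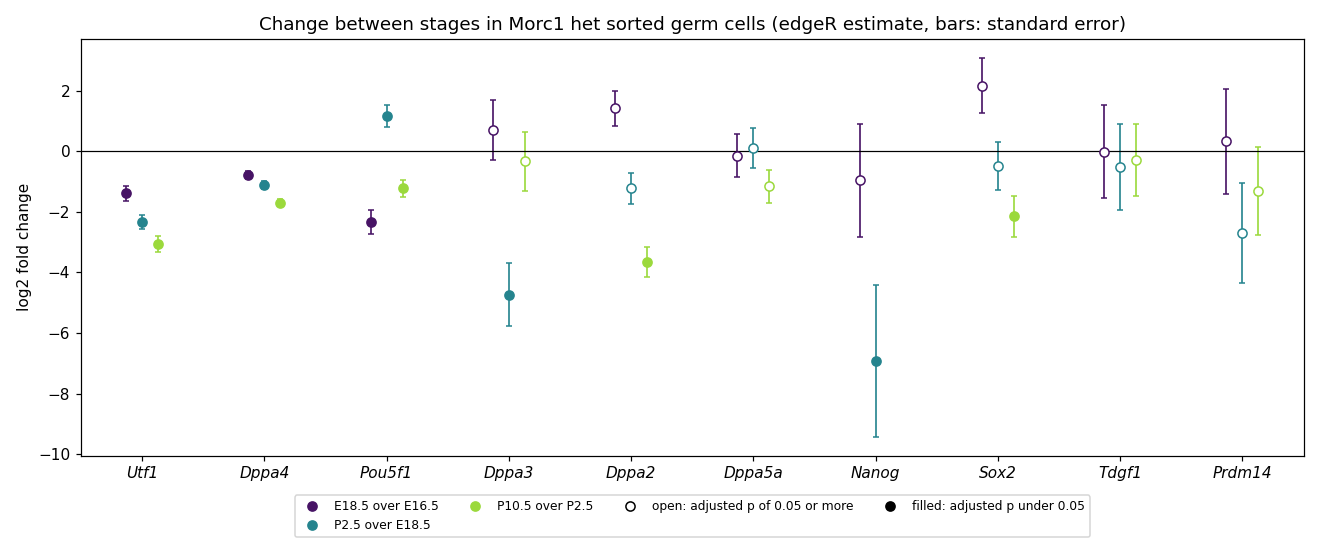
Log2 change of each member between successive stages in Morc1 het germ cells, as estimated by edgeR with its standard error; filled points had an adjusted p under 0.05. Utf1 and Dppa4 fell in all 3 steps, Pou5f1 fell, rose and fell, and the wide bars of Nanog, Tdgf1 and Prdm14 are those of genes with few reads.

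The E18.5 libraries of replicate 1 and 2 differed for several members in the same way in both genotypes. Prdm14 had 35 reads in het replicate 1 and 19 in KO replicate 1, and 0 in replicate 2 of each. Dppa5a had 14.9 and 16.0 RPKM in the libraries numbered 1 and 2.10 and 2.39 in those numbered 2. Tdgf1 was not split that way (13 and 0 reads in the libraries numbered 1, 0 and 6 in those numbered 2). The labels do not say that a number marks a shared litter, and over all genes the deviations of same-numbered libraries correlated with r = 0.0389 only.

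Across the 20 sorted libraries, the genes whose log2(RPKM + 1) ran most like each member were named by Pearson's r, among 12870 genes with a mean of at least 1 RPKM. The libraries share stage, gate and depth, so the values describe a common course and no more. For Dppa4 these were Myo1e (r = 0.99), Tbc1d1 and Dcaf12, and for Utf1 D8Ertd82e (r = 0.98), Sec14l1 and Rbfox3. For Dppa3 they were Ccdc110 (r = 0.98), Ppl and Oxgr1, and for Dppa2 Arrb1 (r = 0.97), Cacna1d and Pecam1. Nanog ran with Crispld1 (r = 0.97), Prdm14 with Tsga10ip (r = 0.94), Pou5f1 with Clpb (r = 0.93), Dppa5a with Dkkl1 (r = 0.90) and Sox2 with Pax7 (r = 0.86).

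Other genes of the network were called in both directions. Of 17 further pluripotency factors tested, 7 were higher and 1 lower at E18.5 than at E16.5, 2 higher and 5 lower from E18.5 to P2.5, and 3 higher and 3 lower from P2.5 to P10.5, next to 18.7%, 39.1% and 27.6% of all genes called in these steps. Otx2, a factor of primed pluripotency, had 0.159 and 0.978 RPKM at E16.5, then 10.8 and 11.5 at E18.5 and 0.0430 to 0.163 at P2.5 (adjusted p = 0.00279 and 3.98e-05 with edgeR). Nr5a2, a nuclear receptor that acts upstream of Pou5f1, peaked at P2.5 (16.4 to 21.1 RPKM) and was lower at P10.5 (3.22 to 4.46, adjusted p = 1.57e-05).

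Among 17 tested genes of other kinds in the list (signal receptors, chromatin and RNA-binding proteins), 3 were higher and 2 lower, 4 higher and 5 lower, and 3 higher and 7 lower over the same 3 steps, to be read against the same shares of all genes. The cell adhesion gene Cdh1 rose to E18.5 (2.25 and 2.72 against 9.09 and 16.4 RPKM, adjusted p = 3.73e-06). It rose again to P2.5 (log2 change 0.87, SE 0.19, adjusted p = 0.00186 with edgeR) and was lower at P10.5 than at P2.5 (adjusted p = 2.18e-05). Tet1, a methylcytosine dioxygenase, had 1.46 to 2.09 RPKM at P2.5 and 0.138 to 0.318 at P10.5 (adjusted p = 5.77e-06). The LINE-derived RNA-binding gene L1td1 had 3.12 and 4.28 RPKM at E16.5 and 0.225 to 0.393 at P10.5 (adjusted p = 1.52e-05). Of the 8 tested genes of primordial germ cells, 6 were lower and 2 higher at P10.5 than at E16.5 (50.7% of all genes called), with Prdm1 (Blimp1) at 5.20 and 6.54 RPKM before and 0.239 to 0.444 after (adjusted p = 7.90e-09). The Nodal pathway, which uses Tdgf1, had 13 tested genes, of which 3 were higher and 0 lower at E18.5 and 1 higher and 4 lower at P2.5, where 18.7% and 39.1% of all genes were called. Its transducer Smad3 rose from 0.571 and 1.11 RPKM at E16.5 to 2.55 and 2.70 at E18.5 (adjusted p = 0.00108).

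Before P10.5 no member passed the test between Morc1 KO and het germ cells, in groups of 2 or 3 libraries in which few genes of any kind passed. At E16.5, Utf1 had 192 and 173 RPKM in KO against 150 and 155 in het, and Dppa4 168 and 124 against 116 and 147. Utf1, Pou5f1 and Dppa3 were higher in both KO libraries than in both het libraries, and the other 7 members overlapped. How many of all genes had groups that did not overlap was not counted, so these orders are description only. No member was called of 10 tested with edgeR (1 at an unadjusted p under 0.05, 0 with DESeq2), where 0.421% of 16630 genes were. Dppa3 was the member with the unadjusted p under 0.05. It had 22.5 and 9.49 RPKM in KO and 7.44 and 8.66 in het, a log2 change of 0.93 (SE 0.30, adjusted p = 0.271). Without KO replicate 2 the change was 1.39 with an adjusted p of 0.000218, a value that rests on the single KO library left, the higher one, with the spread taken from het alone.

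At E18.5 no member was called of 9 tested (0 at an unadjusted p under 0.05, 0 with DESeq2, 0.0416% of all genes called). Morc1 itself was not called there (log2 change -2.32, SE 0.41, adjusted p = 0.139 with edgeR), so the absence of a call says little about the members. Utf1 had 47.9 and 19.3 RPKM in KO against 60.1 and 54.7, Pou5f1 4.08 and 0.854 against 5.15 and 5.60, and Dppa4 58.0 and 53.5 against 78.9 and 71.2. All 3 were lower in both KO libraries than in both het libraries, as was Dppa3 (8.19 and 3.75 against 10.9 and 14.53). Nanog was higher in both KO libraries (1.39 and 1.19 against 1.09 and 0 RPKM), and the other 5 members overlapped. None of these members was called. How many of all genes had groups that did not overlap was not counted, so these orders are description only. The low Pou5f1 of KO replicate 2 rested on 7 reads, and that of replicate 1 on 25.

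At P2.5 no member was called of 8 tested (2 at an unadjusted p under 0.05, 0 with DESeq2, 0.0486% of all genes called). Dppa4 had 57.0 and 54.3 RPKM in KO against 35.7 to 41.5 in het (log2 change 0.47, SE 0.21, adjusted p = 0.968). Pou5f1 had 2.11 and 9.67 RPKM in KO (12 and 134 reads) against 9.21 to 17.4 (log2 change -1.24, SE 0.56, adjusted p = 0.968). Sox2 was higher in both KO libraries (4.23 and 3.90 RPKM) than in any het library (0.815 to 3.41), with an adjusted p of 0.968. Dppa4 was also higher in both, and the other 8 members overlapped. How many of all genes had groups that did not overlap was not counted, so these orders are description only.

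At P10.5, with 4 het and 3 KO libraries, Pou5f1 and Dppa4 were higher in KO germ cells. Pou5f1 had 8.66, 7.02 and 9.38 RPKM in KO against 3.46 to 6.57 (median 4.65) in het, a log2 change of 0.71 (SE 0.20, adjusted p = 0.0206 with edgeR). Dppa4 had 13.1, 16.9 and 13.7 RPKM against 9.16 to 11.1 (median 9.76), a change of 0.47 (SE 0.13, adjusted p = 0.0202). Every KO library lay above every het library for both, and, without a call, for Sox2 (0.475 to 0.695 against 0.162 to 0.427) and Dppa5a (5.37 to 6.77 against 2.54 to 4.91), while Tdgf1 lay below in every KO library (0.0338 to 0.0988 against 0.173 to 0.287). Of all genes, 12.2% were called in this comparison. The share of all genes whose groups did not overlap was not counted, so the orders of the members are description only.

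These were 2 of the 6 members tested, all of which had positive estimates (median 0.71, against 0.00 over all genes), among 14019 genes tested. Dppa5a (0.70, SE 0.31, adjusted p = 0.147), Utf1 (0.64, SE 0.43), Sox2 (0.74, SE 0.52) and Dppa2 (0.85, SE 0.62) were not called. The 4 other members had too few reads to be tested, among them Tdgf1, with 1 to 3 reads in KO and 5 to 10 in het. Neither call was firm. Pou5f1 had an adjusted p of 0.0752, 0.0775, 0.0615 and 0.109 without het replicate 1, het replicate 4, KO replicate 1 and KO replicate 3, and 0.648 when all 20 sorted libraries shared 1 fit. Dppa4 had 0.0685, 0.0539, 0.0574 and 0.132 without het replicates 1, 3 and 4 and KO replicate 2, and 0.129 in the shared fit.

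In the same comparison 2 of 6 genes of the general germ cell list were higher and 1 lower, and 4 of 10 Sertoli markers and 4 of 6 meiotic genes were lower with none higher. Of the 13 spermatogonia genes, 5 were higher (Zbtb16, Gfra1, Etv5, Ret and Lhx1, log2 changes 0.35 to 0.47) and 2 lower, Kit (-0.55) and Stra8 (-1.08), which mark differentiating spermatogonia. Of 6 peritubular genes 2 were higher, Pdgfra (0.93) and Col1a1 (0.34). The Sertoli markers summed to 77.6 to 129 RPKM in het and 51.2 to 104 in KO. Of the further network genes, 1 of 16 factors was higher and 1 lower, and 7 of 16 other genes were higher and 1 lower. The genes that were lower were Nr0b1 (log2 change -1.52, adjusted p = 0.0437 with edgeR) and Tet2 (-0.79, adjusted p = 0.0345). Nr5a2 had 6.75 to 7.22 RPKM in KO against 3.22 to 4.46 (adjusted p = 0.000250), and Cdh1 13.6 to 15.4 against 8.21 to 9.85 (adjusted p = 0.000327). The part of the cell composition in the rise of Pou5f1 and Dppa4 was not tested.

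Whether the effect of the Morc1 genotype differed from that at E16.5 was tested as an interaction. No member was called at E18.5 (1 of 10 at an unadjusted p under 0.05, 0 with DESeq2, 0.253% of 17758 genes called), at P2.5 (1, 0 and 0.0563%) or at P10.5 (0, 0 and 0.0507%). For Pou5f1 the estimates against E16.5 were -1.34 (SE 0.71) at E18.5, -1.39 (SE 0.63) at P2.5 and 0.50 (SE 0.56) at P10.5. That of P2.5 was -2.86, with an adjusted p of 0.0401, when KO replicate 2 was left out, which leaves 1 KO library of 12 reads there, assumed to vary like the other groups.

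**Figure D3:**
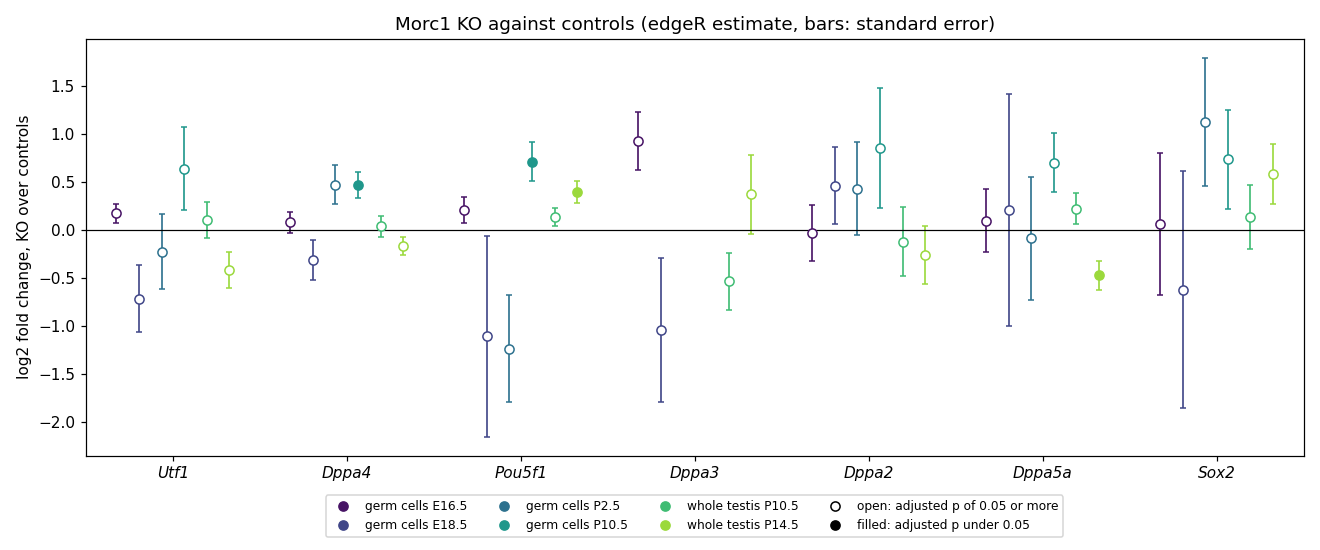
Log2 change of 7 members in Morc1 KO over controls in sorted germ cells of 4 stages and in whole testis of 2 ages, as estimated by edgeR with standard errors; filled points had an adjusted p under 0.05. The filled points are Pou5f1 and Dppa4 in P10.5 germ cells and Pou5f1 and Dppa5a in P14.5 testis.

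Because Dppa4 and Dppa2 are neighbours of Morc1, the genes within 5 Mb of Morc1 were counted, 69 in the tables with the pair included. At P10.5, 4 of the 32 tested were called in germ cells (12.5%, against 12.2% of all genes), 2 higher, Dppa4 among them, and 2 lower. In whole testis 4 of 34 were called at P10.5 (11.8%, against 15.3% of all genes) and 12 of 34 at P14.5 (35.3%, against 34.8%).

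**Figure D4:**
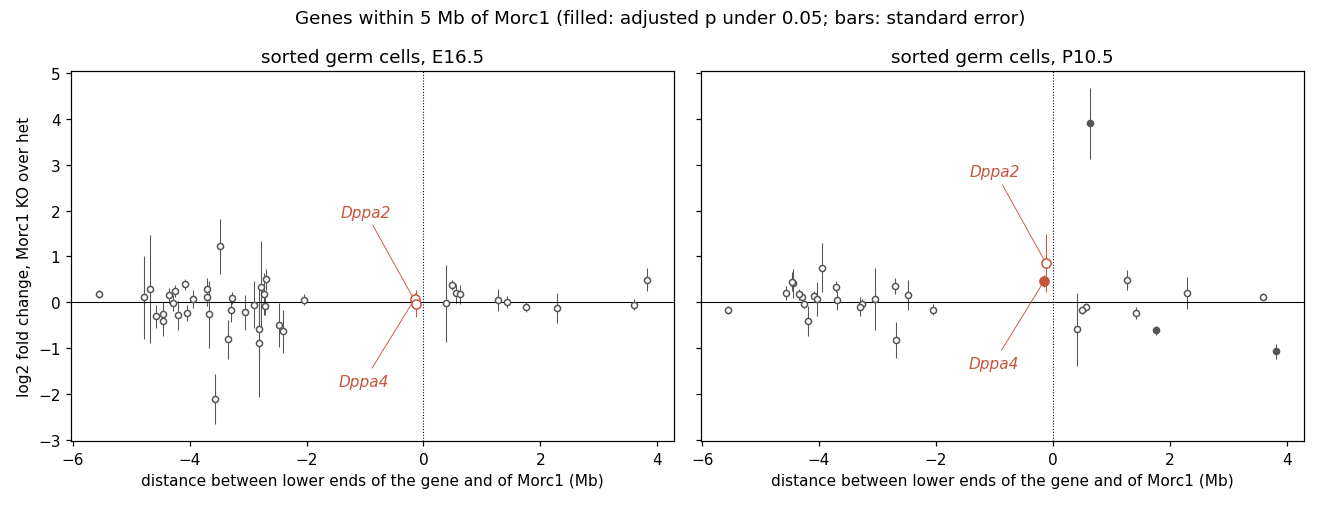
Log2 change in Morc1 KO over het germ cells of each tested gene within 5 Mb of Morc1 against its distance from Morc1, at E16.5 and P10.5, with standard errors; filled points had an adjusted p under 0.05. Dppa2 and Dppa4 (red) lie at -0.03 and 0.08 at E16.5, and Dppa4 is 1 of 4 called genes at P10.5.

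Whole testis holds somatic cells beside germ cells, and in it fewer germ cells and less RNA per germ cell cannot be told apart. The mean level of P10.5 het sorted cells was 0.83 times that of P10.5 Morc1 het testis for Pou5f1, 0.84 times for Utf1, 1.06 times for Dppa5a and 1.55 times for Dppa4. For members that were low in those sorted cells it was 0.65 (Dppa3), 1.41 (Dppa2), 1.93 (Sox2), 2.17 (Tdgf1) and 4.01 (Prdm14). The ratio was 0 for Nanog, which had no read in those sorted cells but 0.328 and 0.647% of the members' summed RPKM in those testis libraries. The libraries of the 2 kinds were made in different ways, and no germ cell gene was set beside the members. These ratios were therefore not tested and do not measure enrichment in germ cells. At P10.5 none of 7 tested members was called in Morc1 KO testis with edgeR (0 at an unadjusted p under 0.05, 0 with DESeq2), where 15.3% of 15165 genes were. Pou5f1 had 6.56, 6.04 and 6.23 RPKM in KO against 5.71 in WT and 5.41 and 6.23 in het, and Dppa4 6.82, 6.75 and 5.60 against 6.01, 5.83 and 6.99. Germ cell genes fell in these libraries (5 of 6 of the list), with sums of 196 to 223 RPKM in KO against 299 to 312 in controls.

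At P14.5, Pou5f1 had 7.04, 8.13 and 7.19 RPKM in KO against 5.38, 6.21 and 5.57 in het, a log2 change of 0.39 (SE 0.12, adjusted p = 0.0291). Dppa5a had 3.70, 3.87 and 3.64 RPKM against 5.53, 5.27 and 4.87, a change of -0.47 (SE 0.15, adjusted p = 0.0362). These were 2 of 7 members tested, where 34.8% of 15283 genes were called. The groups did not overlap for either. Without a call, Nanog and Sox2 were also higher and Dppa4 lower in every KO library, and the other 5 members overlapped. How many of all genes had groups that did not overlap was not counted, so these orders are description only. Over the same libraries all 6 germ cell genes and all 6 meiotic genes were lower, and 9 of 10 Sertoli markers higher, so Pou5f1 moved against that germ cell list. The spermatogonia genes went both ways. Gfra1 was called higher (log2 change 0.45), and Id4 (-0.71), Stra8 (-0.64) and Sohlh2 (-0.74) lower. The part of the cell composition was not tested. The calls of Pou5f1 and Dppa5a hung on single libraries. Pou5f1 had an adjusted p of 0.110, 0.0807, 0.0761 and 0.0658 without het replicate 1, het replicate 3, KO replicate 2 and KO replicate 3, and Dppa5a one of 0.0541 to 0.128 without any 1 of the 6 libraries.

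Utf1 was higher in P14.5 than in P10.5 testis, in both genotypes. It had 10.2, 7.52 and 10.1 RPKM in het and 8.80, 6.40 and 5.44 in KO at P14.5, against 1.52 and 1.46 in het and 1.72, 1.70 and 1.19 in KO at P10.5. The mean of het was 6.21 times that of P10.5, while that of Pou5f1 was 0.983 times. This pair of ages was picked after the values were seen and was not tested. Foxh1, a transcription factor of the Nodal pathway, and Fbxo15, a target gene of Pou5f1 and Sox2 in stem cells, were likewise high in P14.5 het testis (1.51 to 2.00 and 7.22 to 10.55 RPKM, against 0.0806 and 0.0936, and 1.84 and 2.29). Both were lower in KO at P14.5 (adjusted p = 0.000436 and 0.000132 with edgeR), and Utf1 had a change of -0.42 (SE 0.19, adjusted p = 0.119). Without het replicate 2 or KO replicate 1 the fall of Utf1 had an adjusted p of 0.0485 or 0.0308.

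Among the comparisons of genotypes, the most members were called in the Dnmt3l line, where the share of all genes called was also the largest. DNMT3L is the cofactor of de novo DNA methyltransferases that prospermatogonia need to methylate their genome. In P10.5 testis 4 of the 6 members tested were lower in KO than in the 6 controls (3 WT and 3 het) and 1, Dppa4, was higher, where 53.9% of 15665 genes were called.

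**Figure D5:**
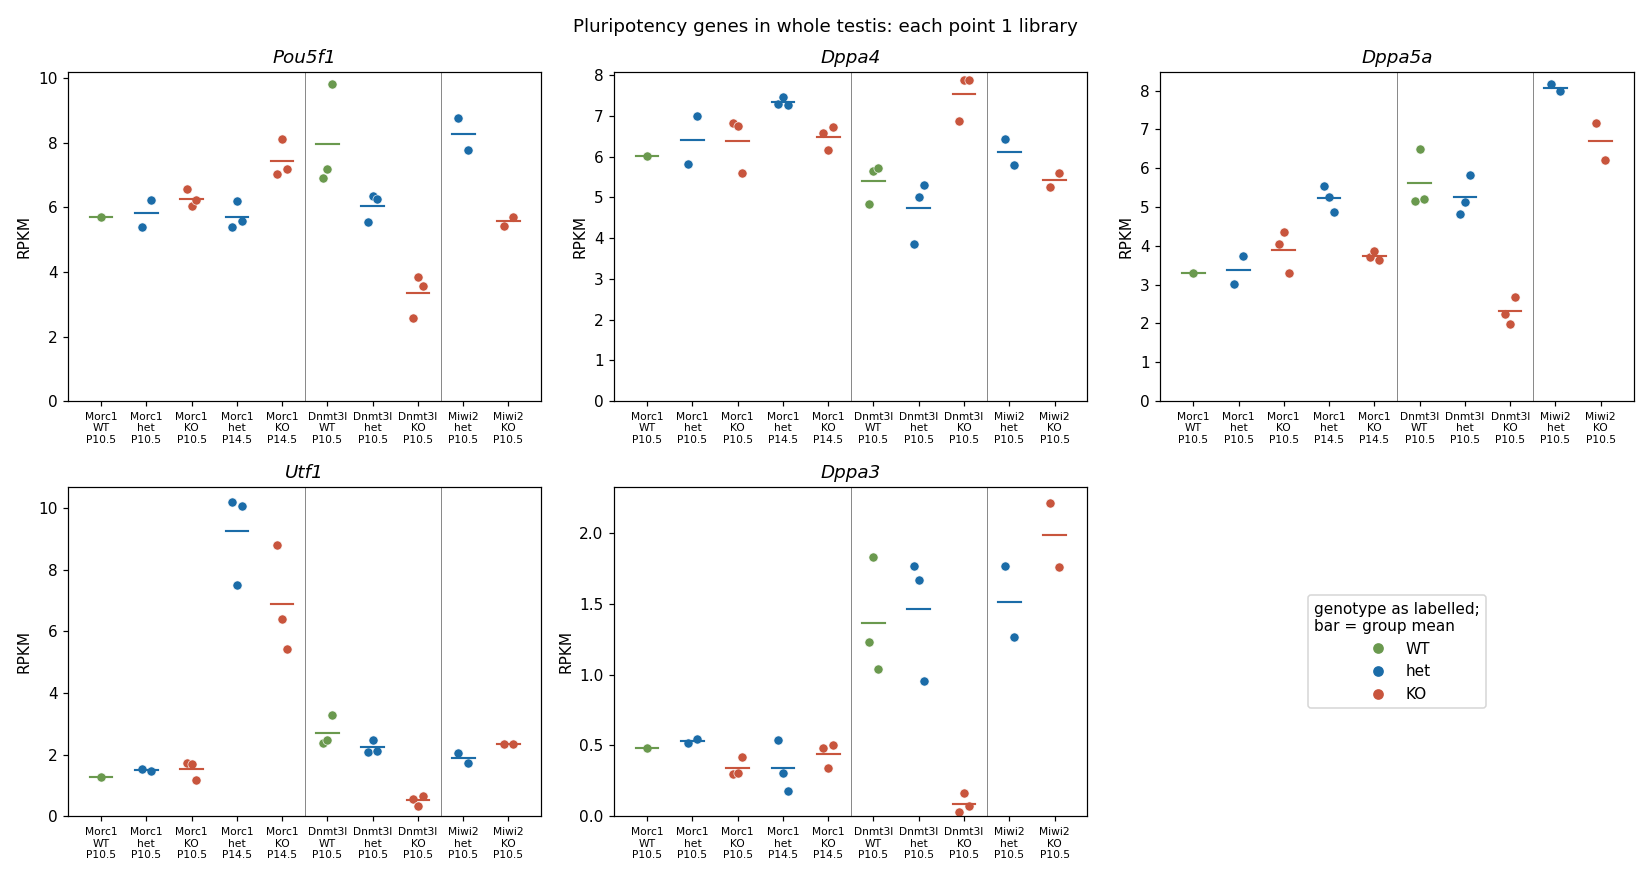
RPKM of 5 members in each whole testis library by line, genotype and age (preliminary libraries left out); points are libraries and bars group means, on axes from 0. In Dnmt3l KO testis Pou5f1, Dppa5a, Utf1 and Dppa3 lie below all controls and Dppa4 above them, and Utf1 is high in all 6 libraries of P14.5.

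Dppa3 had 0.0292, 0.162 and 0.0759 RPKM in Dnmt3l KO (1, 6 and 3 reads) and 0.951 to 1.83 (median 1.45) in controls (31 to 52 reads). It fell by 3.86 on the log2 scale (SE 0.41, adjusted p = 1.38e-05), or 14.6-fold. With so few reads in KO, Dppa3 passed the filter on counts through the controls only. Its fall enters the count of members called and is no separate support for a fall of the members. Utf1 had 0.555, 0.329 and 0.669 RPKM against 2.09 to 3.28 (median 2.43), a change of -2.20 (SE 0.23, adjusted p = 1.23e-05). Dppa5a (2.24, 1.99 and 2.69 RPKM against 4.81 to 6.49) and Pou5f1 (2.58, 3.84 and 3.58 against 5.56 to 9.84) were lower by 2.28 and 2.04-fold (adjusted p = 5.72e-05 and 0.000463). No KO library reached a control for any of the 4, nor for Sox2, which was too low to be tested. How many of all genes had groups that did not overlap was not counted, so these orders, and that of Dppa4 below, are description only.

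Dppa4 had 6.88, 7.88 and 7.88 RPKM in Dnmt3l KO against 3.86 to 5.71 (median 5.16) in controls, a change of 0.62 (SE 0.12, adjusted p = 0.000751). Every KO library lay above every control. Dppa2, its neighbour, had 0.212 to 0.281 RPKM against 0.0806 to 0.301 and an adjusted p of 0.382. Nanog, too low to be tested, had 9, 14 and 6 reads in KO against 2 to 6 in controls, and its groups overlapped in reads. The 5 calls were made in each of the 9 fits that left out 1 library and with either the het or the WT controls alone.

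All 6 germ cell genes and all 6 meiotic genes were lower in Dnmt3l KO testis, and 7 of 10 Sertoli markers higher with none lower. The germ cell genes summed to 151 to 177 RPKM in KO against 387 to 508 in controls, and their median log2 change was -1.37, next to -1.11 for the members tested and 0.00 for all genes. Utf1 and Dppa3 thus lay below that median, Pou5f1 and Dppa5a above it, and Dppa4 had the opposite sign. Of the further factors, 9 of 16 were lower and 1 higher, next to 53.9% of all genes, among them Sall4, a zinc finger factor of spermatogonia (4.59 to 5.79 against 16.3 to 18.2 RPKM, adjusted p = 6.41e-08). Tfap2c, which germ cell precursors need, had 0.0525 to 0.169 RPKM against 0.877 to 1.17 (adjusted p = 4.20e-06), and Tdh, the threonine dehydrogenase of stem cells, 0.155 to 0.224 against 0.806 to 1.29.

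In the Miwi2 line, named for a PIWI protein that guides methylation by piRNAs, Pou5f1 was the single member called of 6 tested, where 1.23% of 15997 genes were. It had 5.43 and 5.72 RPKM in the libraries labelled Miwi2 KO and 8.78 and 7.79 in Miwi2 het, a log2 change of -0.59 (SE 0.11, adjusted p = 0.0263 with edgeR). DESeq2 gave no adjusted p for it. The 1.23% comes from a fit without pairing. Same-numbered het and KO libraries of this line deviated together over all genes (r = 0.683), and a replicate block called far more of all genes. Dppa5a (7.17 and 6.21 against 8.17 and 7.98 RPKM, adjusted p = 0.254) and Dppa4 (5.25 and 5.60 against 6.44 and 5.80, adjusted p = 0.358) were also lower in both KO libraries without passing the test. Dppa3 had 2.21 and 1.76 RPKM against 1.76 and 1.26, and Utf1 2.35 and 2.33 against 2.05 and 1.73. Utf1 was thus higher in both KO libraries, Sox2 and Prdm14 were lower in both, and the other 4 members overlapped. How many of all genes had groups that did not overlap was not counted, so these orders are description only. Of the germ cell list 1 of 6 genes was higher and none lower, with sums of 467 to 473 against 402 to 408 RPKM. The gene called was Piwil2, a PIWI gene (log2 change 1.66, adjusted p = 1.39e-06 with edgeR), and the other 5 had changes of -0.12 to 0.29. The label check above applies to each of these directions.

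Levels compared between members carry 1 further limit, which is that several have near-identical copies elsewhere in the genome. Of 50-base pieces cut from the exons every 5 bases, the share with a second site at up to 2 mismatches was 90.5% for Dppa4, 89.5% for Dppa5a, 86.5% for Dppa3, 79.3% for Dppa2, 62.4% for Tdgf1, 59.3% for Nanog and 26.5% for Pou5f1. It was 1.24% for Sox2, 1.14% for Prdm14 and 0% for Utf1. Exact copies covered 51.0% of the pieces of Dppa4 and 65.3% of those of Dppa5a. Since reads were kept where they mapped to 1 location, first among annotated genes and repeats and then in the genome, and the copies were sought in the whole genome, such genes may be counted short or share reads with their copies, which was not tested, and the order of Utf1 and Dppa4 by level is uncertain for that reason.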

How the data were processed

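RNA-Seq was deposited as 1 table per library, with read counts and RPKM for each of 26385 genes. Per the labels and the study's methods, the authors discarded ribosomal reads, mapped 50-bp reads first to mm9 genes and repeats (up to 2 mismatches, 1 location kept) and the rest to the mm9 genome, and counted reads per gene with HTSeq. RPKM values were deposited by the authors as reads per exon length and mapped reads. The aligner of this step and the tool versions were not stated in the sources used here. The other samples of the series were not analysed here.

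The deposited counts were tested with edgeR 4.0.16 (R 4.3.3), using TMM, filterByExpr and the quasi-likelihood F-test, with p-values adjusted by Benjamini-Hochberg across every tested gene and called under 0.05. Each of the 15 comparisons was fitted on its own groups, with the 4 stages of Morc1 het in 1 fit and all 20 sorted libraries in the interaction fits. The controls of Dnmt3l and of Morc1 testis at P10.5 were het and WT, and the 2 preliminary libraries were left out of the tests. Standard errors are the log2 change over the square root of F. The other settings were DESeq2 1.42.0, no filter, upper-quartile scaling, a replicate block, 1 shared fit, other control sets and leaving out each library. The scripts were tested on simulated data. The members and gene lists were chosen with earlier results of these data known. Named genes of the network, primordial germ cell and Nodal lists were among the up to 3 called genes with the largest changes per list and comparison, not always the largest. Marker genes of other lists were named after their values were seen. Promoter sequence was read from mm9 before the gene starts of GENCODE vM1. Libraries came from separate mice. Limits from read counts cover counting error only.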

Additional observations from a re-analysis of the deposited data

Results flagged for a closer look

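Among the 6 control libraries of the Dnmt3l line, Utf1 was highest in WT replicate 3, at 3.28 RPKM, and the gap to the next library was large for the range of the group. Chance alone picks out about 1 in 20 such groups, and 19 groups of members were examined. All 3 Dnmt3l KO libraries lay below all 6 controls with or without it.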

How the results depend on the processing

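Depth limits Nanog, Tdgf1 and Prdm14, which had at most 61 reads in any Morc1 het germ cell library, and the groups of 2 or 3 libraries at E18.5 and P2.5 were the shallowest. Of 1405 values of single members under other settings, 1350 kept their side of the threshold, 39 lost a call and 16 gained one, and no value called either way turned its direction. DESeq2 called 5 members in place of 3 from E16.5 to E18.5 (Sox2 and Dppa2 added, both higher), 7 in place of 6 from E16.5 to P10.5 (Prdm14 added, lower, adjusted p = 0.0442, and also called without a filter, 0.0405, and with upper-quartile scaling, 0.0433), 1 in place of 2 in P14.5 testis and 0 in place of 1 in the Miwi2 line, where it gave no adjusted p. From E18.5 to P2.5 it lost Nanog (0.0795) and added Dppa2 (0.0296). That step of Dppa2 was also called with upper-quartile scaling (0.0493), with the replicate block (0.0498) and in 1 fit over the 20 sorted libraries (0.0381). Without a filter on low counts, 1 member in place of 0 was called for Morc1 KO at E16.5, 1 in place of 0 in P10.5 Morc1 testis (Tdgf1, otherwise too low to be tested, with 3 to 10 reads in controls and 0 or 1 in KO, adjusted p = 0.0378), and 1 in place of 2 in P14.5 testis. It also added Nanog as higher in Dnmt3l KO testis (log2 change 1.16, adjusted p = 0.0382). Upper-quartile scaling called 1 in place of 2 in P14.5 testis, and 1 fit over the 20 sorted libraries 0 in place of 2 for Morc1 KO at P10.5. Leaving out 1 library gave 0 to 1 members for Morc1 KO at E16.5, 0 to 2 at P10.5, 0 to 2 in P14.5 testis and 0 to 1 for the interaction at P2.5. Same-numbered libraries did not deviate together in every pair (r from -0.755 to 0.683), so the numbers were not taken as a pairing. The replicate block called 1 member in place of 2 for Morc1 KO at P10.5 (Pou5f1 had an adjusted p of 0.0505) and 1 in place of 2 in P14.5 testis (Dppa5a, 0.0564), and took the call from Nanog from E18.5 to P2.5 (0.262) and from E16.5 to P10.5 (0.0713) and from Sox2 from P2.5 to P10.5 (0.197). Over all genes, the number called also moved with the setting. Morc1 KO germ cells gave 8 to 180 genes at E16.5 (70 as reported), 0 to 619 genes at E18.5 (6 as reported), 0 to 79 genes at P2.5 (7 as reported) and 125 to 1893 at P10.5 (1712). Morc1 testis gave 922 to 2637 at P10.5 (2326) and 3517 to 5564 at P14.5 (5323), and the Miwi2 line 153 to 4503 (197), with the 4503 from the replicate block. The interactions gave 13 to 831 at E18.5 (45), 2 to 315 at P2.5 (10) and 4 to 51 at P10.5 (9), and the step from E16.5 to E18.5 1731 to 4795 (3151). The cause of these differences was not tested.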
